A study of Homo sapiens with 12 samples.

Results

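Expression was compared between AsPC1 and BxPC3, which are human pancreatic ductal adenocarcinoma lines, and their derivatives with resistance to cisplatin, AsPC1-R and BxPC3-R, 1 per line, with 3 arrays in each of the 4 groups. The question put to all 12 arrays of the series was whether the change from the parental to the resistant cells was the same in both lines. For each of 18417 genes, the log2 change in BxPC3-R against BxPC3 was subtracted from the log2 change in AsPC1-R against AsPC1, and the result is called the interaction here. A positive interaction means that the change in AsPC1-R lay above the change in BxPC3-R, and a negative one that it lay below. Genes that passed the test in both derivatives but with opposite signs are described first, 991 of the 18417 genes.

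AsPC1 and BxPC3 are established epithelial lines from human pancreatic ductal adenocarcinoma. Cisplatin, a platinum compound used in chemotherapy, forms crosslinks in DNA. The maintenance concentration of cisplatin was 1.67 µM for AsPC1-R and 0.60 µM for BxPC3-R, but the cells used for RNA, like the parental cells, were subconfluent adherent cultures grown with no drug. With 1 derivative per line, a change cannot be told apart from the history of that derivative, and the doses used for maintenance differed between the lines. Whether the 3 arrays of a group stand for independent cultures is not stated in the labels, and the spread that the p-values rest on may therefore be technical.

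Several signalling systems recur below. NF-kB is a family of dimeric transcription factors that inhibitor proteins of the IkB family hold in the cytoplasm until cytokines, microbial products or DNA damage release it. Its targets include neutrophil-attracting chemokines, acute-phase proteins and its own inhibitors, and it is often active in pancreatic ductal adenocarcinoma. Interferons act through STAT and IRF factors on genes of antiviral defence and antigen presentation. NRF2, which KEAP1 marks for degradation in unstressed cells, drives genes of glutathione synthesis and of the reduction of reactive aldehydes and ketones, and glutathione can bind platinum drugs.

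Levels are log2 values as the authors deposited them, and they hold no read depth, so the number of arrays limits the precision. SMAD4 and CDKN2A are deleted in BxPC3, which gave a check of the labels and of the level read where a gene is missing. SMAD4 stood at 9.90 ± 0.14 (mean ± SD, n = 3) in AsPC1, 9.66 ± 0.14 in AsPC1-R, 4.70 ± 0.49 in BxPC3 and 4.63 ± 0.18 in BxPC3-R. CDKN2A read 6.22 ± 0.11 in BxPC3, so sizes of changes to or from levels up to about that value are uncertain. Its own interaction passed the test at such levels (0.70, SE 0.19, adjusted p = 0.0158, limma), with 5.75 ± 0.24 in BxPC3-R. The mean level over 9 markers of ductal epithelium lay between 9.56 and 9.81 on all 12 arrays, and that over 11 leukocyte markers between 5.16 and 6.40. BxPC3 replicate 2 stood apart: 50 transcripts chosen for their excess in AsPC1-R over BxPC3 had a median level of 6.77 on that array and of 5.72 and 5.67 on the other BxPC3 arrays. The counts of called, opposite and turned genes are therefore also given without it. Conversely, 50 transcripts chosen for their excess in BxPC3-R over AsPC1 had array medians of 4.85 to 5.05 in AsPC1, 5.22 to 5.37 in AsPC1-R and 10.77 to 10.83 in BxPC3, with a median change of 0.26 in AsPC1-R. Of these transcripts, 22 rose and 3 fell in AsPC1-R, beside 11.6% and 8.64% of all genes. Their choice used the AsPC1 arrays, and low readings there favour rises in AsPC1-R. The part of such a shift in the rises described below was not tested.

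The response of the lines differed in 4685 genes, 25.4% of those tested (limma, Benjamini-Hochberg adjusted p under 0.05), and 6635 genes had an unadjusted p under 0.05. The called interaction was positive in 2595 genes (14.1% of all genes) and negative in 2090 (11.3%), and without BxPC3 replicate 2 these counts were 2247 and 1939. It reached 2-fold upwards in 832 genes (4.52%) and downwards in 325 (1.76%). Over all genes, the median change was -0.05 in AsPC1-R and 0.02 in BxPC3-R, and the median interaction was -0.07.

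Taken by line, 2138 genes rose in AsPC1-R (11.6%) and 1592 fell (8.64%), while 1795 rose in BxPC3-R (9.75%) and 2031 fell (11.0%). Of the 1426 genes called in both derivatives, 991 (69.5%) moved in opposite directions and 435 in the same direction. The larger opposite class, 631 genes (3.43% of all genes), rose in AsPC1-R and fell in BxPC3-R, with median changes of 0.66 and -0.63. The smaller class, 360 genes (1.95%), fell in AsPC1-R and rose in BxPC3-R, with median changes of -0.44 and 0.48. Both changes reached 2-fold in 73 genes of the first class and in 7 of the second. Levels in all 4 groups were at or above 6.554, the median of all values, for 422 of the 631 and 311 of the 360 genes. Without BxPC3 replicate 2 the classes held 525 and 320 genes, of which 511 and 299 were shared with the full set. At the edge of the first class, TMEM14C passed with an adjusted p of 0.0499 for its fall of -0.26 in BxPC3-R, and CEMIP did not with 0.0502 and a change of -0.39 (limma). Across the 18417 genes, the 2 changes had a Pearson correlation of -0.26 and a Spearman correlation of -0.17, given as a description since genes are not independent.

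**Figure D1:**
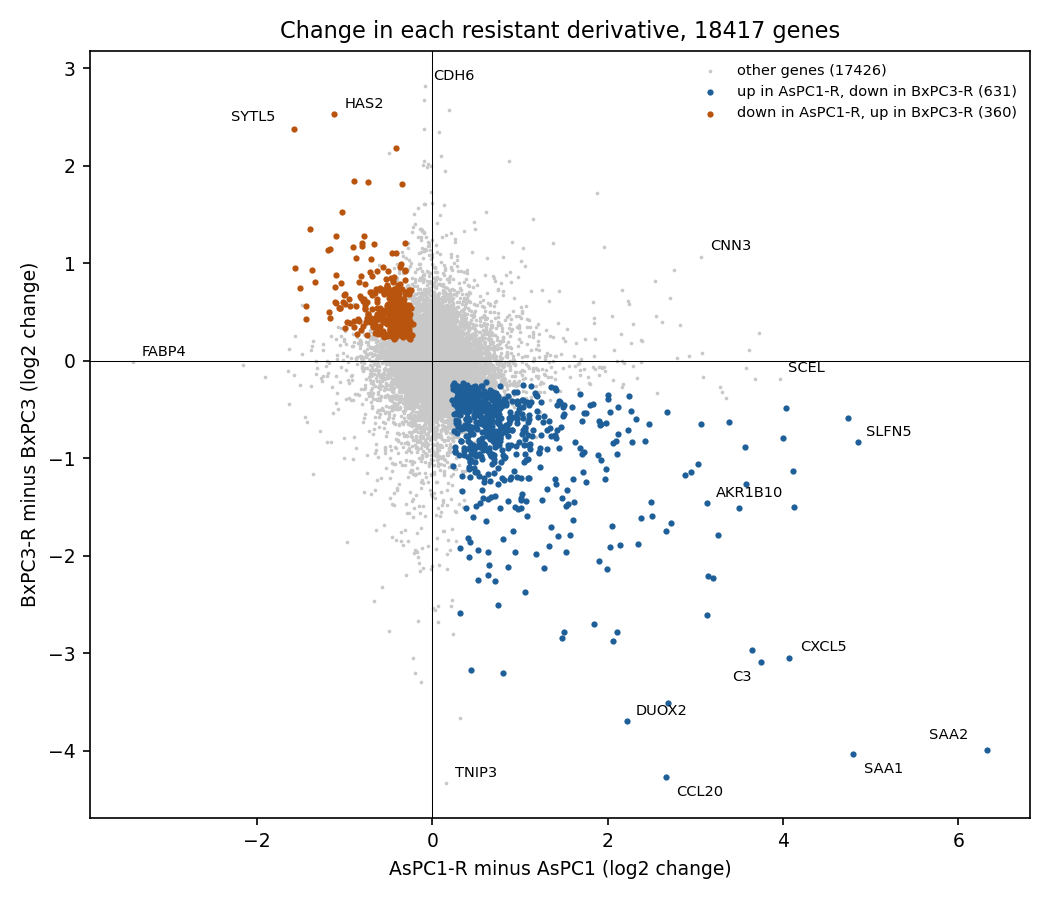
Log2 change in AsPC1-R (x axis) against log2 change in BxPC3-R (y axis), 1 point per gene for 18417 genes. The 631 genes up in AsPC1-R and down in BxPC3-R (blue) reach to SAA2 at 6.33 and -3.99, while the 360 genes down in AsPC1-R and up in BxPC3-R (orange) stay closer to the centre, with SYTL5 at -1.58 and 2.38.

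The genes that rose most in AsPC1-R while falling most in BxPC3-R were led by secreted proteins of inflammation. CXCL5, a chemokine that attracts neutrophils, read 8.05, 8.23 and 8.20 on the AsPC1 arrays, 12.28, 12.33 and 12.09 in AsPC1-R, 9.93, 10.31 and 10.04 in BxPC3, and 7.03, 7.10 and 7.02 in BxPC3-R. The 4 groups were fully separated, and the derivative with the lower parental level became the one with the higher level. This was a 16.8-fold rise in one line and an 8.25-fold fall in the other, an interaction of 7.12 (log2, SE 0.15, adjusted p = 1.75e-12, limma). CCL20, which draws dendritic cells and T cells through CCR6, read 7.64, 7.52 and 7.83 in AsPC1, 10.31, 10.53 and 10.13 in AsPC1-R, 9.01, 9.34 and 9.12 in BxPC3 and 4.79, 4.78 and 5.10 in BxPC3-R. Its interaction was 6.93 (SE 0.18, adjusted p = 1.29e-11), and its level in BxPC3-R fell below that of the deleted CDKN2A, so the size of that fall is uncertain.

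The acute-phase genes SAA1 and SAA2, whose products bind lipid and are induced by inflammatory cytokines, had the highest interactions of all genes tested. SAA2 read 5.22, 5.94 and 5.06 in AsPC1, 11.57, 11.86 and 11.76 in AsPC1-R, 12.20, 12.10 and 12.18 in BxPC3, and 8.11, 8.25 and 8.15 in BxPC3-R. AsPC1-R thus reached almost the level of parental BxPC3, while BxPC3-R lay between the parental lines, and no groups overlapped. The interaction was 10.31 for SAA2 (SE 0.24, adjusted p = 5.59e-12) and 8.83 for SAA1 (SE 0.36, adjusted p = 7.09e-10). Both genes are nearly identical and low in AsPC1, which leaves the size for each uncertain: a second probe set of SAA2 gave 5.35, with changes of 2.39 and -2.96. C3, the central complement component, rose from 5.87 ± 0.36 to 9.62 ± 0.14 in AsPC1-R and fell from 12.49 ± 0.08 to 9.40 ± 0.08 in BxPC3-R (mean ± SD, n = 3). A parental difference of -6.62 was thus followed by one of 0.22 between the derivatives, which did not pass the test (adjusted p = 0.245, limma).

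PI3, the protease inhibitor elafin of mucosal surfaces, rose by 3.64 (SE 0.12) and fell by 2.97 (0.12) on the log2 scale. DUOX2, an epithelial NADPH oxidase that makes hydrogen peroxide, read 6.81, 6.94 and 6.73 in AsPC1, 9.13, 8.92 and 9.07 in AsPC1-R, 10.21, 10.20 and 10.14 in BxPC3 and 6.48, 6.51 and 6.47 in BxPC3-R. No groups overlapped, and the interaction was 5.91 (SE 0.12, adjusted p = 1.64e-12). Its maturation factor DUOXA2 moved the same way, with an interaction of 3.23 (SE 0.27). The rule for opposite genes also named COXFA4L3 (formerly C15orf48, 6.21), the amino acid transporter SLC6A14 (5.74), the cystatin CST1 (5.43), the adhesion molecule NRCAM (5.35) and the cytochrome P450 CYP4F11 (4.88). In AsPC1, COXFA4L3, SLC6A14, CST1 and CYP4F11 read 4.27 to 5.83, so these sizes are uncertain. NRCAM differed from them in that AsPC1 (7.14) lay above BxPC3 (6.72), and its level in BxPC3-R, 4.52, lay near that of the deleted SMAD4.

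**Figure D2:**
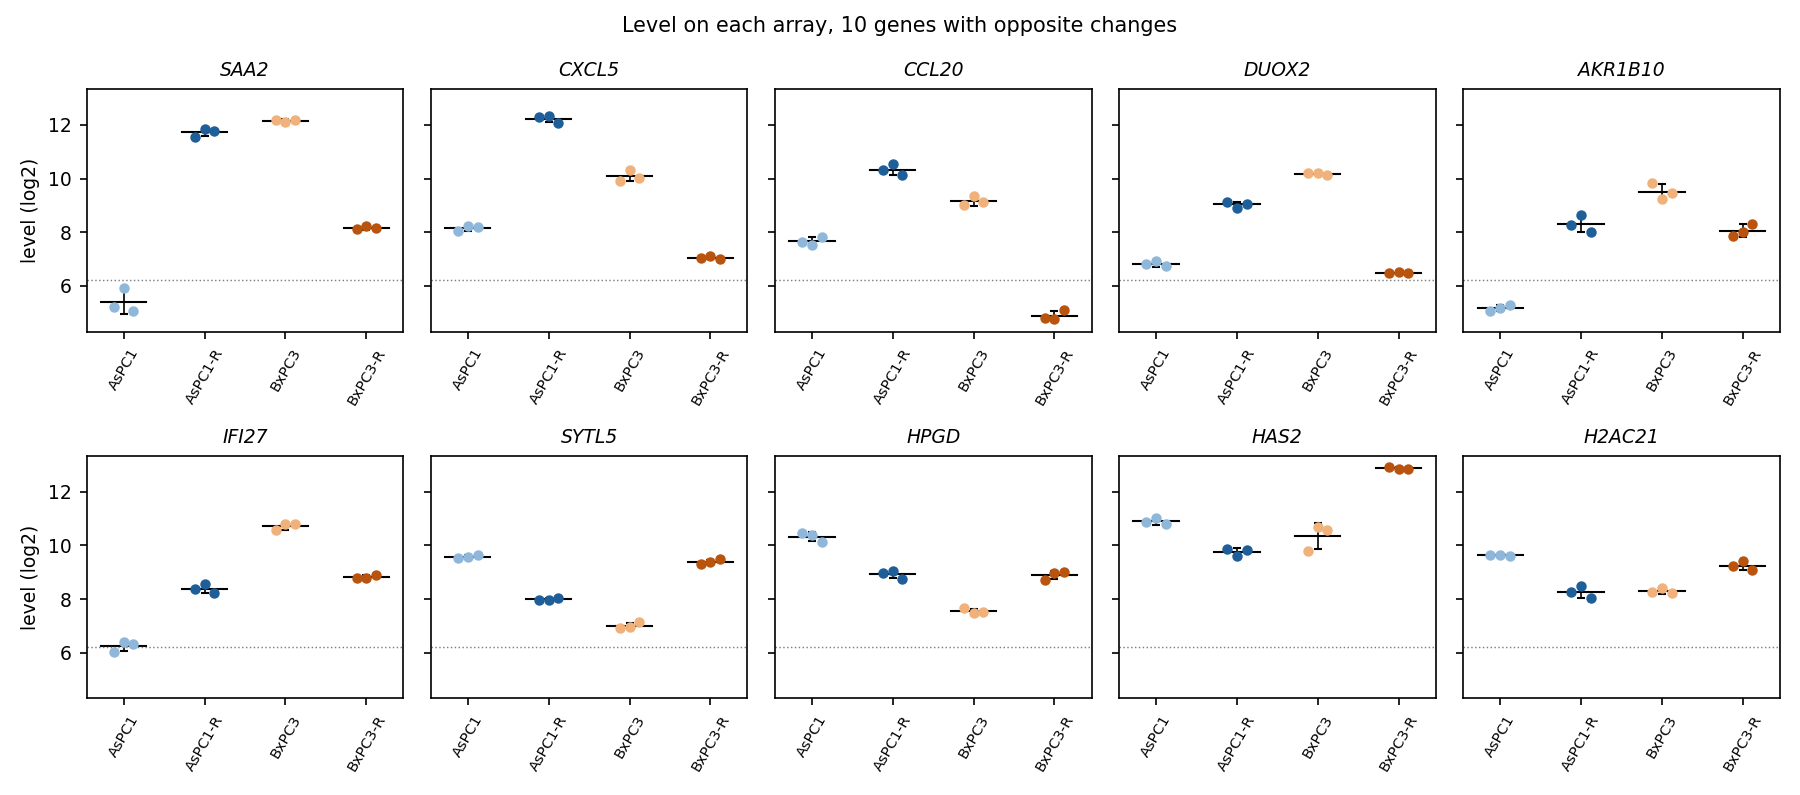
Level (log2) on each of the 12 arrays for 10 genes called in opposite directions, with group means (lines), SD (bars) and the level of the deleted CDKN2A in BxPC3, 6.22 (dotted). SAA2, CXCL5, CCL20, DUOX2, AKR1B10 and IFI27 are higher in AsPC1-R than in AsPC1 and lower in BxPC3-R than in BxPC3, and SYTL5, HPGD, HAS2 and H2AC21 show the reverse.

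Many NF-kB target genes rose in AsPC1-R and fell in BxPC3-R. Of 24 cytokine and chemokine genes known as NF-kB targets, 17 had a positive and 0 a negative interaction, beside 14.1% and 11.3% of all genes, and 11 rose in AsPC1-R and fell in BxPC3-R, beside 3.43%. Their median changes were 0.32 and -0.72, and at an unadjusted p under 0.05 there were 18 positive and 0 negative interactions (limma). CXCL8, the neutrophil chemokine interleukin-8, read 7.10, 6.95 and 6.94 in AsPC1, 9.24, 9.06 and 8.88 in AsPC1-R, 10.09, 10.46 and 10.36 in BxPC3, and 7.27, 7.41 and 7.60 in BxPC3-R. Its 4.18-fold rise and 7.32-fold fall gave an interaction of 4.94 (SE 0.17, adjusted p = 1.81e-10), and both derivatives ended between the parental lines. The neutrophil chemokines CXCL1 and CXCL2 had interactions of 4.28 and 3.26, and those of the interleukin-1 genes IL1A and IL1B were 4.45 and 4.10. IL6 was different: it fell in BxPC3-R from 8.15 to 5.47, but read 5.18 in AsPC1 and 5.25 in AsPC1-R, levels under that of the deleted CDKN2A. TNF, EBI3, IL23A and CSF3 passed in neither derivative.

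The subunits and feedback regulators of NF-kB showed the same signs. Of 21 genes, 17 had a positive and 0 a negative interaction, beside 14.1% and 11.3% of all genes. Of the 21, 10 rose in AsPC1-R and fell in BxPC3-R, beside 3.43%. NFKBIA, which encodes the inhibitor IkB-alpha and is itself induced by NF-kB, read 9.83, 9.85 and 10.02 in AsPC1, 10.55, 10.65 and 10.61 in AsPC1-R, 11.22, 11.36 and 11.29 in BxPC3, and 10.06, 10.13 and 10.23 in BxPC3-R. All 3 arrays of each derivative lay outside the range of its parental line, and the interaction was 1.85 (SE 0.12). Interactions were 3.24 for the mitochondrial superoxide dismutase SOD2, 2.32 for the nuclear IkB protein gene NFKBIZ, 2.10 for the inhibitor TNFAIP3, and 2.15 for the adhesion molecule ICAM1. The subunit genes themselves moved less: the interaction was 1.48 for NFKB2, and 0.37 for both NFKB1 and RELA, while RELB (0.21, SE 0.12) did not pass. TNIP3, a related inhibitor, fell in BxPC3-R from 9.18 ± 0.13 to 4.85 ± 0.34, and read 5.43 ± 0.14 in AsPC1 and 5.59 ± 0.10 in AsPC1-R, low levels at which the test was not passed.

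To show what these genes carry at their starts, the 250 bases before the first listed start of 14237 tested genes were searched on both strands for GGANTTTCC, a core of the NF-kB site. The letters occurred in 1.52% of these promoters, in 27 of 523 promoters (5.16%) of the genes up in AsPC1-R and down in BxPC3-R, in 5 of 297 (1.68%) of the reverse class, and in 15 of 37 (40.5%) of the 2 NF-kB lists. A match is a description of the letters, not of binding. The promoters of CXCL5, CXCL8, CXCL1, NFKBIZ and ICAM1 are shown 5′ to 3′ on the strand of the gene because these genes moved in opposite directions and hold the motif, which is in capitals (RefSeq, GRCh38.p14). They lie at chr4:73998678-73998927 (minus strand), chr4:73740319-73740568 (plus), chr4:73869143-73869392 (plus), chr3:101827740-101827989 (plus) and chr19:10270870-10271119 (plus).
CXCL5: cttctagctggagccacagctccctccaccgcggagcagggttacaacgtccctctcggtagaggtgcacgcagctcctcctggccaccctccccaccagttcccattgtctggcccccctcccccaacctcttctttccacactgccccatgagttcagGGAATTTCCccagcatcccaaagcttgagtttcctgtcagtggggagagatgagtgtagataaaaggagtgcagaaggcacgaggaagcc
CXCL8: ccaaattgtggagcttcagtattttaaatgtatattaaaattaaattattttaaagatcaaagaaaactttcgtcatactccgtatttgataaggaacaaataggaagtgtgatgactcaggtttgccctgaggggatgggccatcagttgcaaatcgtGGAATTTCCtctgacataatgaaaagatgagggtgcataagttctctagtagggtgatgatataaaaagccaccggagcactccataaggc
CXCL1: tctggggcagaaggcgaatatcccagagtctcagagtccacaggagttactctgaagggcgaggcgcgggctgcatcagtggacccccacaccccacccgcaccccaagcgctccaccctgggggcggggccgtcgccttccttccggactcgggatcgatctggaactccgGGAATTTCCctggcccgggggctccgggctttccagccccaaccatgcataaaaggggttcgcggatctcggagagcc
NFKBIZ: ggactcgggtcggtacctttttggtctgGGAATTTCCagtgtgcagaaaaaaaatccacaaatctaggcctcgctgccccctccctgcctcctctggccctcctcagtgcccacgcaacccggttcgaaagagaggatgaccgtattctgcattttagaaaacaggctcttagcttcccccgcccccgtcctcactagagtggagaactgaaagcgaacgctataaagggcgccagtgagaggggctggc
ICAM1: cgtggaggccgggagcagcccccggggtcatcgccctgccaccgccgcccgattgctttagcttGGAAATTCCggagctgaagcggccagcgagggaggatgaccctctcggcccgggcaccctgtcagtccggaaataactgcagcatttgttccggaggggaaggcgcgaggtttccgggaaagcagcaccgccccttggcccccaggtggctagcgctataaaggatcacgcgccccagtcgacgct

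In CXCL5, CXCL8 and CXCL1 the same 9 letters, GGAATTTCC, begin 90, 91 and 78 bases before the start. In NFKBIZ they begin 222 bases before it, and in ICAM1 the reverse-strand match GGAAATTCC begins 186 bases before it. The 3 chemokine genes had interactions of 7.12, 4.94 and 4.28, and a relation between the place of a match and the size of the interaction was not tested.

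Acute-phase, complement and mucosal defence genes extended this pattern. Of 26 acute-phase and complement genes, 14 had a positive and 0 a negative interaction, beside 14.1% and 11.3% of all genes. In this list 8 rose in AsPC1-R and fell in BxPC3-R, beside 3.43%. Among them were the complement genes C1S (4.01, SE 0.24) and CFB (3.95, SE 0.16). The liver acute-phase genes CRP, FGA, FGB, FGG, LBP and ORM1 did not pass the test of the interaction. Of 26 secreted mucosal defence genes, 17 had a positive and 0 a negative interaction (1 negative without AsPC1 replicate 1 or 3). Here 12 rose in AsPC1-R and fell in BxPC3-R, also beside 3.43% of all genes. LCN2, which encodes an iron-siderophore binding protein of neutrophils and epithelia, rose 2.07-fold and fell 5.18-fold, and SLPI, a leukocyte protease inhibitor, rose 4.15-fold and fell 3.24-fold. S100A8, a calcium-binding alarmin, fell in BxPC3-R from 9.24 ± 0.06 to 5.95 ± 0.36 and read 4.67 ± 0.39 and 4.54 ± 0.19 in AsPC1 and AsPC1-R, near the level of a deleted gene.

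Interferon-stimulated genes had the same signs but a different balance between the lines. Of 46 genes, 40 had a positive and 0 a negative interaction, beside 14.1% and 11.3% of all genes. In AsPC1-R 37 rose, in BxPC3-R 22 fell, and 19 did both, beside 11.6%, 11.0% and 3.43% of all genes. The median change was 0.84 in AsPC1-R and -0.30 in BxPC3-R. IFI27, an early interferon-alpha response gene, read 6.04, 6.41 and 6.31 in AsPC1, 8.39, 8.57 and 8.22 in AsPC1-R, 10.57, 10.78 and 10.81 in BxPC3 and 8.78, 8.80 and 8.90 in BxPC3-R. The groups were separated on every array and the interaction was 4.03 (SE 0.16, adjusted p = 7.09e-10). SLFN5, an interferon-inducible member of the Schlafen family, rose by 4.85 in AsPC1-R and fell by 0.83 in BxPC3-R, and DDX60, a helicase that promotes RIG-I signalling, rose by 1.45 and fell by 0.89. CXCL10 and CXCL11, chemokines for activated T cells, rose by 3.99 and 3.72 in AsPC1-R from levels of 3.69 and 4.51, under that of the deleted SMAD4, so their sizes are uncertain. In BxPC3-R, CXCL10 fell by 0.79 and CXCL11 had a change of 0.29 (SE 0.17). The sensor genes IFIH1 and RIGI had interactions of 2.59 and 1.94, and the factor IRF1 of 1.28, while IRF7 (-0.10, SE 0.18) and OAS1 (0.25, SE 0.17) did not pass. GBP2 and IFITM1 went mainly with BxPC3-R, where they fell by 1.93 and 1.92, beside changes of 0.05 and 0.31 in AsPC1-R.

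The letters AAANNGAAA, a core of the interferon-stimulated response element, occurred in 7.23% of all promoters searched, 11.3% of those of genes up in AsPC1-R and down in BxPC3-R, 7.41% of the reverse class and 27 of 36 (75.0%) of the interferon list. The promoters of IFI27, chr14:94110486-94110735 (plus strand), and DDX60, chr4:168318753-168319002 (minus strand), are shown as members of that list that moved in opposite directions and hold 2 matches each, in capitals.
IFI27: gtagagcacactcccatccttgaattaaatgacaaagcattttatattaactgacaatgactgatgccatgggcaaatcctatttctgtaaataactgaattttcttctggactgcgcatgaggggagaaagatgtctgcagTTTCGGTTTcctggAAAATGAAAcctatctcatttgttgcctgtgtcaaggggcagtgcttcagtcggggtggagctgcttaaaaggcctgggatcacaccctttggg
DDX60: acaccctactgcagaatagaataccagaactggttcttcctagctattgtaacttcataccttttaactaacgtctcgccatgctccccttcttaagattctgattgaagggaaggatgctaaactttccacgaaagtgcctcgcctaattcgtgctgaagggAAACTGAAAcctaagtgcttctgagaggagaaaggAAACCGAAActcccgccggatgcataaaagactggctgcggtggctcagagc

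The matches begin 108 (on the reverse strand) and 94 bases before the start in IFI27 and 87 and 52 bases before it in DDX60.

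Genes of antigen presentation divided by class. Of 12 genes of MHC class I presentation, 9 had a positive and 0 a negative interaction, beside 14.1% and 11.3% of all genes. In AsPC1-R 5 rose, in BxPC3-R 10 fell, and 5 did both, beside 11.6%, 11.0% and 3.43% of all genes. B2M, the light chain of every class I molecule, read 11.28, 10.96 and 11.31 in AsPC1, 11.94, 12.11 and 11.83 in AsPC1-R, 12.50, 12.22 and 12.43 in BxPC3, and 11.48, 11.58 and 11.72 in BxPC3-R, an interaction of 1.57 (SE 0.16). The immunoproteasome subunit PSMB9 and the peptide transporter TAP1 had interactions of 2.43 and 1.46. Of 10 genes of class II presentation, 7 rose in AsPC1-R and 7 had a positive interaction, while 1 fell in BxPC3-R, near the share of all genes. HLA-DPA1 rose from 5.08 ± 0.14 to 9.82 ± 0.13 in AsPC1-R, with an interaction of 5.33 (SE 0.14), while the class II transactivator CIITA had changes of 0.18 and 0.11. When genes dim in every group were left out, 4 class II genes had a positive interaction.

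NRF2 targets were the list with the highest share of opposite genes. Of 26 genes, 23 had a positive and 0 a negative interaction, beside 14.1% and 11.3% of all genes. Of the 26, 17 rose in AsPC1-R and fell in BxPC3-R, beside 3.43% of all genes. AKR1C2, an aldo-keto reductase, read 9.63, 9.34 and 10.14 in AsPC1, 11.21, 11.16 and 11.33 in AsPC1-R, 10.43, 10.39 and 10.33 in BxPC3, and 8.39, 8.42 and 8.45 in BxPC3-R. Parental levels were within 0.68 of each other and the derivatives stood 2.81 apart, giving an interaction of 3.49 (SE 0.21, adjusted p = 3.57e-08). Probes may not tell the similar genes AKR1C1, AKR1C2 and AKR1C3 apart, and a second probe set of AKR1C1 gave 1.81 in place of 3.16. AKR1B10 had an interaction of 4.59 and the aldehyde dehydrogenase ALDH3A1 of 3.06.

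Glutathione genes were among them. GCLC, the catalytic subunit of the limiting enzyme of glutathione synthesis, read 10.70, 10.76 and 10.74 in AsPC1, 11.67, 11.67 and 11.64 in AsPC1-R, 11.58, 11.41 and 11.40 in BxPC3, and 10.29, 10.30 and 10.39 in BxPC3-R. AsPC1-R thus ended above and BxPC3-R below all parental arrays, with an interaction of 2.06 (SE 0.11, adjusted p = 9.53e-09). The cystine importer SLC7A11 had an interaction of 2.03, thioredoxin reductase TXNRD1 of 1.08 and the quinone reductase NQO1 of 1.15. The modifier subunit GCLM rose in AsPC1-R by 1.15 and had a change of 0.25 in BxPC3-R, and HMOX1 and TXN did not pass the test of the interaction. The letters TGACNNNGC, a core of the antioxidant response element, occurred in 11.8% of all promoters searched, 15.3% of the genes up in AsPC1-R and down in BxPC3-R, 8.75% of the reverse class and 6 of 20 (30.0%) of the NRF2 list.

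Transporters of platinum and copper gave 8 positive and 0 negative interactions (1 negative without BxPC3 replicate 2) among 18 genes. The shares of all genes were 14.1% and 11.3%. Of the 18, 3 rose in AsPC1-R and fell in BxPC3-R, beside 3.43%. The efflux pump ABCC3, also an NRF2 target, rose from 8.73 ± 0.12 to 9.42 ± 0.14 in AsPC1-R, and in the other line all BxPC3-R arrays (7.05 ± 0.05) lay below those of BxPC3, 7.95, 8.08 and 7.97 (interaction 1.64, SE 0.13). SLC31A2, a copper transporter of endosomes, had an interaction of 1.08, and the efflux pumps ABCC4 and ABCC5 of 0.99 and 0.72. The copper importer SLC31A1 and the copper pump ATP7A did not pass the test of the interaction, with 0.24 (SE 0.11) and -0.29 (SE 0.14). Metallothioneins, cysteine-rich proteins that bind metals and can bind platinum, gave 0 called interactions among 10 genes (limma, 1 without AsPC1 replicate 3), with 1 at an unadjusted p under 0.05. In both derivatives 3 of them fell, beside 202 of all 18417 genes. MT1E read 8.35 in AsPC1, 7.45 in AsPC1-R, 9.43 in BxPC3 and 8.42 in BxPC3-R, an interaction of 0.11 (SE 0.15, adjusted p = 0.633). Their range of interactions was -0.22 to 0.37.

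**Figure D3:**
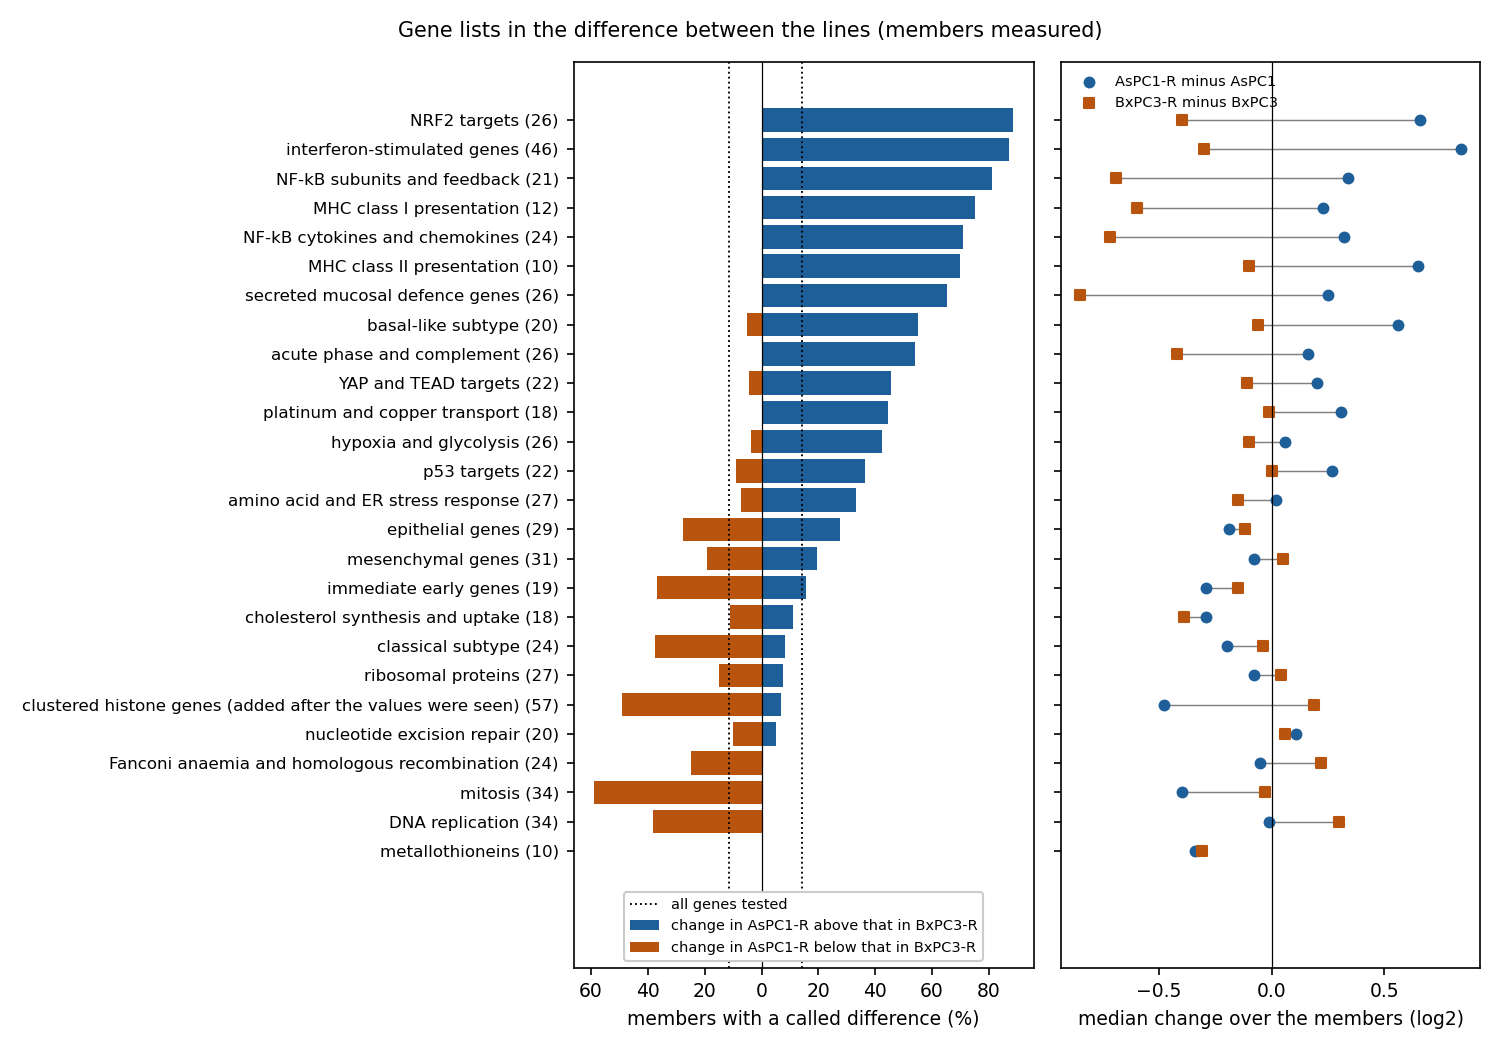
Gene lists with the number of members measured. Left, percent of members whose interaction passed the test, positive to the right (blue) and negative to the left (orange), with dotted lines at the 14.1% and 11.3% of all genes; right, the median log2 change over the members in AsPC1-R (circles) and BxPC3-R (squares). NRF2 targets (23 of 26) and interferon-stimulated genes (40 of 46) lie at the top, and DNA replication and mitosis genes have negative interactions only.

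The reverse class, down in AsPC1-R and up in BxPC3-R, was smaller in size and of other kinds of genes. SYTL5, a synaptotagmin-like protein that binds the vesicle GTPase RAB27A, read 9.54, 9.56 and 9.64 in AsPC1, 7.98, 7.98 and 8.04 in AsPC1-R, 6.93, 6.97 and 7.14 in BxPC3, and 9.32, 9.38 and 9.48 in BxPC3-R. It fell 2.99-fold in one line and rose 5.20-fold in the other, with the lowest interaction of all called genes at -3.96 (SE 0.11, adjusted p = 2.4e-11). HPGD, which inactivates prostaglandin E2, fell from 10.32 ± 0.16 to 8.93 ± 0.16 in AsPC1-R and rose from 7.55 ± 0.09 to 8.90 ± 0.16 in BxPC3-R (mean ± SD, n = 3). From parental levels 2.77 apart, the derivatives met within 0.03, and the interaction was -2.74 (SE 0.16, adjusted p = 2.94e-08).

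HAS2, a hyaluronan synthase, read 10.88, 11.02 and 10.78 in AsPC1, 9.87, 9.61 and 9.82 in AsPC1-R, 9.78, 10.67 and 10.58 in BxPC3, and 12.93, 12.86 and 12.84 in BxPC3-R. Replicate 1 of BxPC3 lay below the other BxPC3 arrays, and BxPC3-R stood above every other array (interaction -3.65, SE 0.25, adjusted p = 1.45e-07). The others that the rule named were the calcium-activated chloride channel ANO1 (-2.07), the phosphodiesterase-like SMPDL3A (-2.32), the protein kinase A inhibitor PKIB (-2.32), the adaptor PAG1 (-2.37), TMEM117 (-2.52), the urea transporter SLC14A1 (-2.73), the proteoglycan LUM (-2.56) and the histones H2AC21 (-2.31) and H1-5 (-1.98). LUM in BxPC3 read 4.81, 5.58 and 4.36, highest on replicate 2 and around the level of a deleted gene, so the size of its rise there is uncertain. TMEM117 and LUM lie on chromosome 12, where 32.2% of the tested genes had a negative interaction. The part of that shift in their values was not tested.

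Replication-dependent histone genes were frequent in this class, and a list of the 57 on chromosomes 1 and 6 was added after their values were seen. Of these, 28 had a negative and 4 a positive interaction, beside 11.3% and 14.1% of all genes. Of the 57, 16 fell in AsPC1-R and rose in BxPC3-R, beside 1.95%, and the list had median changes of -0.48 and 0.19. Since the values led to the list, its counts are a description only. H2AC21 read 9.65, 9.64 and 9.61 in AsPC1, 8.27, 8.48 and 8.03 in AsPC1-R, 8.26, 8.43 and 8.23 in BxPC3, and 9.24, 9.42 and 9.07 in BxPC3-R, so that the ranges of AsPC1-R and BxPC3 overlapped while AsPC1 and BxPC3-R lay above both. The 4 histone genes with positive interactions, a share below that of all genes, were H2BC12 (1.52), H4C8 (1.26), H2BC5 (1.03) and H2BC11 (0.95). Histone genes of 1 family are close in sequence and may share probes, so their counts are not of independent genes.

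DNA replication and mitosis genes also had negative interactions, by different routes. Of 34 replication genes, 13 had a negative and 0 a positive interaction, beside 11.3% and 14.1% of all genes. BxPC3-R carried most of it, with 20 genes up, beside 9.75% of all genes, and a median change of 0.30. In AsPC1-R 4 genes fell, near the 8.64% of all genes, and the median change was -0.01. The clamp loader subunit RFC5 read 9.22, 9.18 and 9.46 in AsPC1, 8.71, 8.72 and 8.78 in AsPC1-R, 8.44, 8.81 and 8.84 in BxPC3, and 9.34, 9.30 and 9.54 in BxPC3-R (interaction -1.24, SE 0.16). The primase PRIM1 (-1.08), the polymerase subunits POLA1 (-1.01) and POLE (-0.78), like RFC5, moved in opposite directions. RFC5, PRIM1 and POLE lie on chromosome 12, where 32.2% of the tested genes had a negative interaction, and the part of that shift in their values was not tested. Of 34 mitosis genes, 20 had a negative and 0 a positive interaction. Here AsPC1-R carried it, with 19 genes down, beside 8.64% of all genes, and a median change of -0.40. In BxPC3-R 2 fell and 1 rose, beside 11.0% and 9.75% of all genes. The spindle motors KIF11 and CENPE had interactions of -0.96 (SE 0.13) and -0.90 (SE 0.13), the kinase CDK1 of -0.78, while AURKA, CCNB1 and TOP2A did not pass. At an unadjusted p under 0.05, 22 mitosis genes were negative and 1 positive, and in a limma test against a 1.5-fold change 0 genes were called. Without AsPC1 replicate 3, 2 mitosis genes had a positive interaction.

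Of 24 Fanconi anaemia and homologous recombination genes, which serve the repair of interstrand crosslinks, 6 had a negative interaction and 0 a positive one. Among all genes 11.3% were negative, and 8 of the 24 rose in BxPC3-R, beside 9.75% of all genes. At an unadjusted p under 0.05, 11 interactions were negative and 0 positive (limma), and against a 1.5-fold change 0 were called negative. FANCM, a DNA translocase, fell by 0.41 and rose by 0.47 (interaction -0.88, SE 0.13). In the nucleotide excision repair list of 20 genes, which act on platinum adducts, 2 interactions were negative and 1 positive. Among all genes the shares were 11.3% and 14.1%, so the list does not exceed the background. The ligase LIG1 was at -0.94 (SE 0.12), and ERCC1 (-0.43, SE 0.16) did not pass. These small counts moved with single arrays: leaving out any array but AsPC1 replicate 1 and AsPC1-R replicate 2 took the negative count to 1, as did the replicate block. The positive count was 0 without AsPC1 replicate 1, AsPC1-R replicate 2, BxPC3 replicate 2 or 3, or any BxPC3-R array.

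Cell-state genes were mixed. In BxPC3-R the mesenchymal genes VIM and CDH2 and the cadherin CDH6 rose by 2.02, 1.31 and 2.82, with changes of -0.04, -0.09 and -0.08 in AsPC1-R. VIM, an intermediate filament gene, read 12.37, 12.30 and 12.26 in AsPC1, 12.21, 12.26 and 12.32 in AsPC1-R, 6.97, 8.52 and 7.58 in BxPC3, and 9.66, 9.77 and 9.69 in BxPC3-R. BxPC3 replicate 2 read highest of the BxPC3 arrays, and all BxPC3-R arrays lay above it. ACTA2 and FN1 went the other way with interactions of 2.05 and 1.09. The list of 31 had 6 positive and 6 negative interactions, beside 14.1% and 11.3% of all genes. Among 29 epithelial genes, 8 were positive and 8 negative, beside the same shares of all genes. The keratins KRT8 (-1.46) and KRT18 (-1.30) were negative, and MAL2 (2.01) and the tight-junction gene CLDN1 (1.72) positive. KRT8 and KRT18 lie on chromosome 12, where 32.2% of the tested genes had a negative interaction, and the part of that shift was not tested. Of 20 markers of basal-like pancreatic cancer, 11 interactions were positive and 1 negative, beside 14.1% and 11.3% of all genes. Of 24 classical subtype genes, 9 were negative and 2 positive, or 1 positive with replicate 1 of either derivative left out. The latter included the intestinal antigen GPA33 (-2.12) and the secreted proteins TFF1 (-1.55) and AGR2 (-1.33), the former the long non-coding RNA UCA1 (3.94) and SCEL (4.15).

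Counts in the remaining lists stand beside 14.1% positive and 11.3% negative interactions among all genes. Of 22 YAP and TEAD targets, 10 had positive interactions and 1 a negative one, led by ANKRD1 (4.83, SE 0.18, uncertain in size from a low level in AsPC1). It read 4.78, 5.06 and 5.42 in AsPC1, 8.66, 8.73 and 8.60 in AsPC1-R, 10.65, 10.55 and 10.57 in BxPC3, and 9.30, 9.29 and 9.40 in BxPC3-R. YAP1 and TEAD1 did not pass, at 0.04 and 0.08. For 22 p53 targets the counts were 8 and 2, with TP53INP1 at 1.65, GDF15 at 1.40 and CDKN1A at 0.83. Of the 22, 6 rose in AsPC1-R and fell in BxPC3-R, beside 3.43% of all genes. MDM2, also a gene of chromosome 12, was at -0.45. For 26 genes of hypoxia and glycolysis the counts were 11 and 1, with EGLN3, an oxygen-sensing prolyl hydroxylase, at 2.07. For 27 genes of the response to amino acid lack and ER stress they were 9 and 2, with NUPR1 at 1.42 and ASNS at 1.01. Without AsPC1 replicate 3 the negative counts were 2 for YAP and TEAD targets, 1 for p53 targets and 3 for hypoxia and glycolysis. Without AsPC1-R replicate 2 the last was 2, and the p53 count was 1 also without AsPC1-R replicate 1 or 3, BxPC3 replicate 1 or 3, or any BxPC3-R array. Of 19 immediate early genes, 3 were positive, near the share of all genes, and 7 negative, with DUSP1 at 1.14 and ZFP36 at -1.05. Of 18 cholesterol genes, 2 were positive and 2 negative, beside 14.1% and 11.3% of all genes. In both derivatives 8 of them fell, beside 202 of all 18417 genes. The positive count was 1 without AsPC1 replicate 1 or 2, AsPC1-R replicate 1 or 2, BxPC3 replicate 2 or 3, or BxPC3-R replicate 2. The negative count was 1 with the replicate block and without any single array except AsPC1 replicate 3 and BxPC3 replicate 3. Of 27 ribosomal protein genes, 2 were positive and 4 negative, below or near the background of all genes, but the negative count was 8 with trended, robust variances and 10 with array weights. The positive count was 1 without AsPC1 replicate 1 or 2, AsPC1-R replicate 1 or 2, BxPC3 replicate 2 or 3, or BxPC3-R replicate 1 or 2. Endothelial markers gave 3 positive interactions of 9, from CDH5, TEK and PECAM1, which fell in BxPC3-R by 2.67, 1.71 and 1.24, while PECAM1 rose in AsPC1-R by 0.66. The mean level over the list was 6.26 to 6.33 in BxPC3 and 5.50 to 5.78 on all other arrays, and the defining gene VWF did not pass. A second probe set of PECAM1 gave an interaction of 0.58 that did not pass.

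In many genes with a called interaction, the change passed the test in only 1 derivative. Of 2304 genes called in AsPC1-R and not in BxPC3-R, 1530 had a called interaction, as did 1620 of 2400 called in BxPC3-R and not in AsPC1-R. Over all genes the share was 25.4%. The interaction includes the called change, which favours such counts, and a change that did not pass may still be present. In 446 genes neither change passed but the interaction did. UTRN, the dystrophin relative utrophin, rose in AsPC1-R from 6.85, 6.86 and 6.92 to 10.50, 10.34 and 10.52, close to the 11.24, 11.26 and 11.33 of BxPC3 and the 11.21, 11.18 and 11.24 of BxPC3-R. Its interaction was 3.64 (SE 0.11, adjusted p = 2.42e-11), with a change of -0.07 (SE 0.08) in BxPC3-R. By the same rule, SCEL of the cornified envelope (4.15), the zinc transporter SLC39A8 (3.87), the ubiquitin ligase MID1 (3.50) and TEX15 (3.25) rose in AsPC1-R with changes under 0.25 in size in BxPC3-R. SCEL, MID1 and TEX15 read 4.61 to 5.28 in AsPC1.

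The genes that the rule named as falling in AsPC1-R with a change under 0.25 in size in BxPC3-R were FABP4, GPA33, MYO1A, MYB and OTULINL. MYB, a transcription factor of progenitor cells, fell from 10.74 ± 0.07 to 8.83 ± 0.12, with 7.45 ± 0.16 and 7.29 ± 0.18 in BxPC3 and BxPC3-R (interaction -1.74, SE 0.15). FABP4, a fatty acid binding protein, fell from 6.34, 5.60 and 7.20 to between 2.69 and 3.15, where both BxPC3 groups also read, so its interaction of -3.40 (SE 0.42) is uncertain in size. With a change under 0.25 in size in AsPC1-R, TNIP3, S100A8, the secreted CLCA2, the cornified envelope gene SPRR2A and the zinc finger gene ZNF676 fell in BxPC3-R. RGS4, CDH6, the lipid kinase PIK3C2G, RERG and the protocadherin PCDH20 rose there. CDH6 read 7.48, 8.13 and 8.05 in BxPC3 and 10.80, 10.68 and 10.65 in BxPC3-R, against 5.30, 5.37 and 5.02 in AsPC1 and 5.11, 5.06 and 5.28 in AsPC1-R (interaction -2.91, SE 0.21, adjusted p = 2.2e-07). In all 10 of these genes AsPC1 read 5.56 or less, under the level of the deleted CDKN2A, so the sizes of changes there are uncertain. MYO1A, PIK3C2G and RERG lie on chromosome 12, where 32.2% of the tested genes had a negative interaction. The part of that shift in their values was not tested.

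Among the 435 genes that moved the same way in both derivatives, 98 had a called interaction. Over all genes the share with a called interaction was 25.4%. CNN3, an actin-binding calponin, rose from 6.18 ± 0.16 to 9.25 ± 0.05 in AsPC1-R and from 10.41 ± 0.04 to 11.48 ± 0.05 in BxPC3-R (difference of these changes: SE 0.12, adjusted p = 4.24e-08, limma). CD24, MYO5A, CDC42EP3 and TSPAN12 were the other rises by the rule, each larger in AsPC1-R. Among shared falls, the protease inhibitor SERPINB1 (-0.27 and -1.85) and the lysosomal protease CTSS (-0.35 and -1.85) fell further in BxPC3-R, and the neurotrophin receptor NTRK2 (-1.63 and -0.44) in AsPC1-R.

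In some genes the order of the lines turned. AsPC1 lay below BxPC3 and AsPC1-R above BxPC3-R in 380 genes (2.06%), and the reverse held in 205 genes (1.11%); without BxPC3 replicate 2 the counts were 316 and 192. Of the 631 genes up in AsPC1-R and down in BxPC3-R, AsPC1 lay below BxPC3 in 463, AsPC1-R lay above BxPC3-R in 396, and 228 did both. Of the 360 genes of the reverse class, 213 were higher in AsPC1 than in BxPC3, 248 were lower in AsPC1-R than in BxPC3-R, and 101 did both. Both classes were chosen for their changes on the same arrays. That choice favours these orders, so the counts within the classes are a description only. Beside SAA1, SAA2, CXCL5 and DUOX2, the extracellular matrix gene FRAS1 turned, from 5.07 against 7.10 in the parental lines to 8.46 against 6.47. In the other direction SYTL5, PKIB, H2AC21, H4C3 and H4C4 were named. H4C3 read 10.25, 10.52 and 10.37 in AsPC1 and 9.17, 9.35 and 9.02 in BxPC3, but 8.96, 9.38 and 8.77 in AsPC1-R and 9.96, 9.62 and 10.37 in BxPC3-R.

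**Figure D4:**
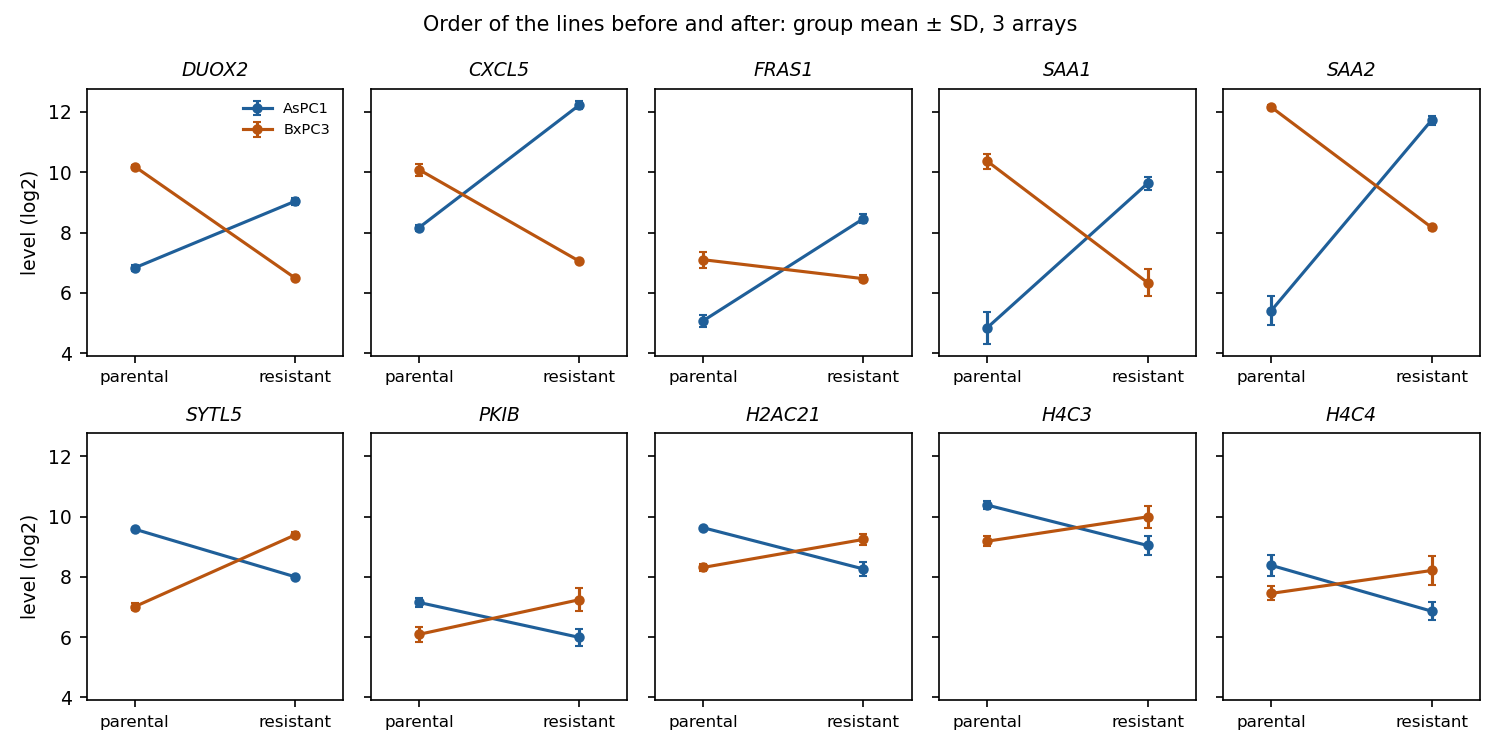
Group means with SD (3 arrays each, log2 level) in the parental and the resistant cells of AsPC1 (blue) and BxPC3 (orange) for the genes named by the rule whose order turned. In the upper row, AsPC1 lies below BxPC3 and AsPC1-R above BxPC3-R, as for DUOX2 at 6.83 against 10.19 and 9.04 against 6.49, and in the lower row the order turns the other way, as for SYTL5.

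The genes down in AsPC1-R and up in BxPC3-R were unevenly placed in the genome. Chromosome 12 held 5.33% of the tested genes but 29.2% of this class, 105 of 982 genes (10.7%, beside 1.95% overall), and 8 genes of the opposite class. On it 316 genes (32.2%) had a negative interaction, and the medians over its genes were -0.12 in AsPC1-R, 0.13 in BxPC3-R and -0.24 for the interaction. All 26 windows of 25 neighbouring expressed genes on chromosome 12 had a median interaction below 0, while the median over 483 windows of the genome was -0.02. The lowest were those from GLIPR1 to LUM (-0.93), BTG1 to APAF1 (-0.94) and BLTP3B to APPL2 (-0.98), which follow each other along the chromosome. In the GLIPR1 to LUM window the medians were -0.34 in AsPC1-R and 0.65 in BxPC3-R, and 14 of 25 genes moved in opposite directions.

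Genes of this stretch that were picked after their values were seen include KITLG, the ligand of the receptor KIT, which read 10.70, 10.71 and 10.67 in AsPC1, 10.06, 9.99 and 9.91 in AsPC1-R, 8.91, 8.92 and 8.92 in BxPC3, and 9.79, 9.86 and 9.82 in BxPC3-R (interaction -1.62, SE 0.10). The lamina-associated TMPO had an interaction of -1.86, the nucleoporin NUP37 of -1.65, the apoptosome gene APAF1 of -1.11 and, in the window that follows, the RNA polymerase III subunit POLR3B of -1.93. DNA copy number was not analysed here, and its part in these shifts was not tested. Other windows with low medians were DNTTIP2 to RNPC3 on chromosome 1 (-0.70) and H3C1 to BTN2A2 in the histone cluster of chromosome 6 (-0.63). The highest were PBX4 to ZNF91 on chromosome 19 (0.69), where the median change in BxPC3-R was -0.60 and zinc finger genes such as ZNF676 and ZNF429 fell, SPG11 to TRPM7 on chromosome 15 (0.59) and EZH1 to CD300LG on chromosome 17 (0.57). Genes up in AsPC1-R and down in BxPC3-R made up 6.77% of chromosome 15, 6.09% of chromosome 17 and 5.94% of chromosome 6, beside 3.43% overall.

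**Figure D5:**
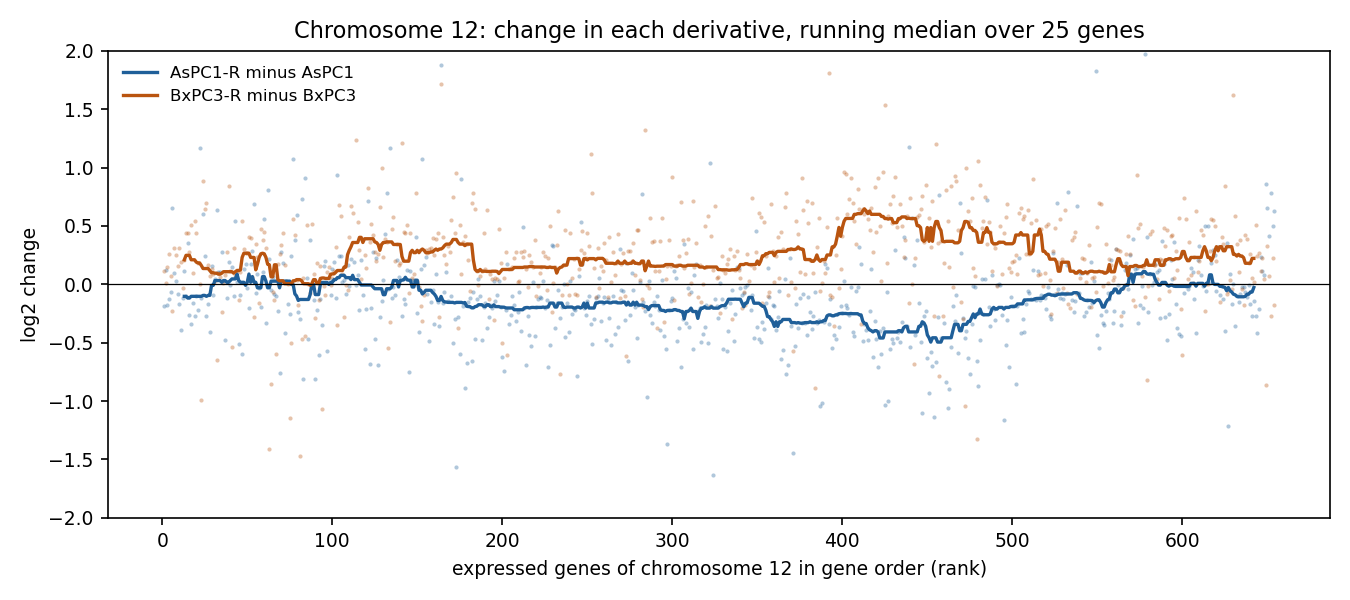
Log2 changes of 654 expressed genes of chromosome 12 in gene order (x axis, rank), with running medians over 25 genes for AsPC1-R (blue) and BxPC3-R (orange); 8 genes have a value beyond the axis limits of -2 and 2. The curves part over most of the chromosome and lie farthest apart in the stretch where the windows from GLIPR1 to APPL2 fall.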

How the data were processed

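RNA was measured on 12 1-colour Affymetrix arrays, 3 in each group. The authors deposited log2 expression values made with RMA in Affymetrix Expression Console, per the submitters' processing notes, with versions not given in the sources used here. The table holds 33297 probe sets, of which 19460 list 1 gene symbol, 1754 several and 12083 none here. Each of the 18417 genes was read from its probe set with the highest mean over the 12 arrays. Genes were tested with limma 3.58.1 (R 4.3.3, lmFit and eBayes on all 4 groups, 8 residual and 5.47 prior degrees of freedom), and p-values were Benjamini-Hochberg adjusted over all genes. The script was tested on simulated data. Folds are antilogs of log2 differences.

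Genes were named by fixed ranks of the interaction within classes and lists, and other list members are given as counts or values. The classes, 30 lists and their members were chosen with earlier results of these data known. Replicate numbers did not pair the arrays: of 18 same-numbered pairs, 3 had deviations correlated over 0.1 (range -0.239 to 0.34). Alternatives covered normalization, filters, variance models, weights, thresholds and each array left out.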

Additional observations from a re-analysis of the deposited data

Results flagged for a closer look

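The response differed between the lines by the test of the interaction itself in 2595 genes with a positive and 2090 with a negative value. Named genes that rose in AsPC1-R and fell in BxPC3-R had these interactions on the log2 scale: SAA2 10.31, SAA1 8.83, CXCL5 7.12, CCL20 6.93, C3 6.85, PI3 6.61, COXFA4L3 6.21, DUOX2 5.91, SLC6A14 5.74, CST1 5.43, NRCAM 5.35 and CYP4F11 4.88. For named genes that fell in AsPC1-R and rose in BxPC3-R the interactions were SYTL5 -3.96, HAS2 -3.65, HPGD -2.74, SLC14A1 -2.73, LUM -2.56, TMEM117 -2.52, PAG1 -2.37, SMPDL3A -2.32, PKIB -2.32, H2AC21 -2.31, ANO1 -2.07 and H1-5 -1.98. FABP4 (-3.40) passed in AsPC1-R, and CDH6 (-2.91) and RGS4 (-2.76) passed in BxPC3-R.

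Probe sets without exactly 1 gene symbol are outside the comparisons above. Of 13837 such probe sets, 1007 (7.28%) had a called interaction, 456 positive and 551 negative, between -2.94 and 6.18. Over all probe sets in the same test the share was 15.1%.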

How the results depend on the processing

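The 6 counts of called, opposite and turned genes stayed within 1.5 times their values under all alternatives that give them but 3. Fitting 6 arrays at a time gives only the 4 opposite and turned counts. With array weights, 3326 interactions were negative, 587 genes fell in AsPC1-R and rose in BxPC3-R, and 317 turned from higher to lower. Against a 1.5-fold change, 689 interactions were positive and 244 negative, 71 and 4 genes moved in opposite directions, and 48 and 3 turned. At an adjusted p under 0.01, 1204 interactions were negative, 388 and 161 genes moved in opposite directions, and 234 and 103 turned. The cause of the shift with array weights was not tested, and the others are stricter thresholds. Leaving out 1 array gave 2247 to 2777 positive and 1703 to 2519 negative interactions, 508 to 691 and 254 to 356 opposite genes, and 311 to 430 and 163 to 228 turned genes. With the replicate block, which the pairing check does not call for, these 6 counts were 2528, 1997, 609, 320, 368 and 189. Of the 148 named genes, 147 had a called interaction, and these kept their sign under the 22 alternatives that give it. With dim genes left out, 143 of the named genes were tested. Against a 1.5-fold change 34 lost their call, and 12 did so at an adjusted p under 0.01. Only 3 arrays per group limit the precision, and sizes at low levels are uncertain.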
